A study of Mus musculus with 6 samples.

Results

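Cyclin D, CDK4/6 and the inhibitors that hold them in G1 are described here by 9 genes, picked by symbol from the 23793 loci of an RNA sequencing table of newborn mouse cerebellum. They are the D-type cyclins Ccnd1, Ccnd2 and Ccnd3, the kinases Cdk4 and Cdk6, the inhibitors Cdkn1b, Cdkn2c and Cdkn2d, and the retinoblastoma gene Rb1. All 9 symbols were found, each in 1 row, and all 9 passed the filter on low values. The study deleted Zeb2, a zinc finger transcription factor, to ask what it does in Bergmann glia, the radial glia of the cerebellar cortex. Whole cerebellum was taken at postnatal day 0. In the 3 Zeb2 cKO libraries the genotype was Zeb2 f/f; hGFAP-cre, and in the 3 Control libraries it was Zeb2 f/+; hGFAP-cre. Both groups thus carried the Cre transgene and at least 1 floxed Zeb2 allele, and the controls kept a wild-type allele. The Cre is driven by the human GFAP promoter, which is active in neural progenitors and glia, so not every cell of the tissue is a target. Whether each library is a separate animal is not stated in the labels, and the spread behind each p-value is that among the libraries.

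As background, D-type cyclins bind CDK4 and CDK6, and the complexes phosphorylate the retinoblastoma protein, which then releases E2F factors that switch on genes of DNA replication. INK4 proteins, among them the products of Cdkn2c (p18) and Cdkn2d (p19), bind the kinases and keep cyclins away. The KIP protein p27, the product of Cdkn1b, binds cyclin-CDK complexes and restrains CDK2. In the cerebellum after birth, granule neuron progenitors divide in the external layer in response to Sonic hedgehog, and Ccnd1 and Ccnd2 are among the genes that this signal raises.

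Values are FPKM per locus (fragments scaled for transcript length and library size), which allows levels of different genes to be set side by side. The 6 libraries summed to between 497542 and 524474 FPKM, and the sources used here do not give the number of reads behind them. Zeb2 averaged 5.30 ± 1.23 FPKM in cKO and 9.65 ± 1.73 FPKM in controls (SD, n = 3 each), with no overlap and a limma adjusted p of 0.107. By exact permutation (two-sided) p was 0.1, which is the lowest value possible with 3 libraries in each group. Xist, the RNA that silences an X chromosome in females, averaged 144 FPKM in cKO and 0.394 FPKM in controls. The Y-linked genes Eif2s3y and Ddx3y averaged 0.0766 and 0.0178 FPKM in cKO, against 35.8 and 16.3 FPKM in controls. Genotype and sex therefore cannot be told apart in anything that follows. The library cKO 3 was about as close to the controls as to its own group. Across loci, which do not count as replicates, its log2 values correlated at 0.952 with each of cKO 1 and cKO 2, and at 0.953, 0.95 and 0.956 with Control 1, 2 and 3. The 6 markers of cerebellar territory summed to between 417 and 443 FPKM in cKO and between 421 and 472 FPKM in controls, most of it Zic1. Single members differed within that sum: Gbx2 rose, with 17.6 ± 1.74 FPKM in cKO and 7.75 ± 1.27 FPKM in controls (SD, n = 3 each, limma adjusted p = 0.0231), and Ptf1a averaged 1.57 FPKM in cKO and 3.66 FPKM in controls, without overlap or a call.

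The promoters of Cdk4, Cdk6 and Cdkn2c are shown because these are the genes with an entry in the promoter table whose cKO and control values did not overlap. RefSeq sequences (GRCm38.p6, 250 bases before to 50 after an annotated start, gene strand) were matched for 6 of the 9 genes, with 8 starts. Ccnd1, Ccnd2 and Rb1 had no entry. Capitals mark matches to CACGTG (the E-box of Myc and other basic helix-loop-helix factors) and to TTTNNCGC (an E2F motif), on either strand.
Cdk4, chr10:127063285-127063584, plus strand: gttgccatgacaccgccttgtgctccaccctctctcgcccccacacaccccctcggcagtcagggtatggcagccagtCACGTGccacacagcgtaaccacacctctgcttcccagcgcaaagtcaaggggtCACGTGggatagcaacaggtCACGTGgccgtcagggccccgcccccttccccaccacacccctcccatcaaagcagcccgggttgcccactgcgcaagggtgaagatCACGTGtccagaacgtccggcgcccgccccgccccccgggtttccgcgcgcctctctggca
Cdk6, chr5:3343643-3343942, plus strand: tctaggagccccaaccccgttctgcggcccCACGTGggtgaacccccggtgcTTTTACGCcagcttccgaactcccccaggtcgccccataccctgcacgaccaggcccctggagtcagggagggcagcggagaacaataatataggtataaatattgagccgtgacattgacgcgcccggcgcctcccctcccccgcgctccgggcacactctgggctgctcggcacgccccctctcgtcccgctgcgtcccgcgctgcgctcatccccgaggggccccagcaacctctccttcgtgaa
Cdkn2c, upstream start, chr4:109666707-109667006, minus strand: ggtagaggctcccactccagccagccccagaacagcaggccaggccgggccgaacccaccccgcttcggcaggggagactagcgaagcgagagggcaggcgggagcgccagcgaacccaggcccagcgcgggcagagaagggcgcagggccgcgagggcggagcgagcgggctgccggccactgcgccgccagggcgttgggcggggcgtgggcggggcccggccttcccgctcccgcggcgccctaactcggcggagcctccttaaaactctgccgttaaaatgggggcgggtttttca
Cdkn2c, downstream start, chr4:109665323-109665622, minus strand: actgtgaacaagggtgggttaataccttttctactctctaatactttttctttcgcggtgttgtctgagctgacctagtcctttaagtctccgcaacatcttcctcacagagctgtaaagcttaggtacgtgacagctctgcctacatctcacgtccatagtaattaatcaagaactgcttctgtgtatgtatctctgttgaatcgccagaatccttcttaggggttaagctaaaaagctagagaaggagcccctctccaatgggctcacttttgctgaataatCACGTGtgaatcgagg
The Cdk4 window held 4 copies of CACGTG, beginning at -172, -118, -98 and -11 from the start site. At least 1 copy was present in 7.15% of the 32851 promoter windows in the table, and 8 windows in all (0.0244%) held 4 or more, a count made after the Cdk4 sequence had been seen. The Cdk6 window held 1 copy at -220 and 1 match to TTTNNCGC at -198, a motif found in 5.17% of windows. The downstream Cdkn2c window held 1 copy of CACGTG at 34, and the upstream one had none of the motifs searched. Neither CACCTG, the E-box letters that ZEB factors bind (20.2% of windows), nor GACCACCCA, a GLI motif (0.253%), was found on either strand in the 8 windows. These letters describe the sequence and do not show that a factor binds there. CACGTG reads the same on both strands, and no match overlapped a match to another motif.

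Among the D-type cyclins, Ccnd1 fell, and its level in cKO was 48.7% of the control mean. Cyclin D1 is the D-type cyclin best known as a target of growth factor signals. Ccnd1 had 28.8, 27.1 and 31.5 FPKM in cKO 1, 2 and 3, against 58.6, 64.5 and 56.7 FPKM in Control 1, 2 and 3. The highest cKO value lay far under the lowest control value, and the spread within each group was small beside that gap. The log2 fold change of FPKM + 1, the scale of all tests here, was -1.01 (SE 0.07), with a limma adjusted p of 0.00305 over the 13612 loci tested. Ccnd1 was the 1 gene of the 9 that passed the threshold of 0.05, against 0.573% of all tested loci. It passed with any 1 library left out, at adjusted p between 0.00476 and 0.0292, and without cKO 3 its log2 fold change was -1.07. The values of low loci placed the libraries in 2 processing sets, and within each set Ccnd1 was lower in cKO, at 28.8 and 27.1 FPKM in cKO against 64.5 and 56.7 FPKM in controls of the larger set, and at 31.5 FPKM in cKO 3 against 58.6 FPKM in Control 1 of the other. The libraries of the second deposit, cKO 3 and Control 3, had 31.5 FPKM in cKO and 56.7 FPKM in the control. The Ccnd1 row (GRCm38 chromosome 7, 144929931 to 144939925, minus strand) is named for Ccnd1 and Mir3962, a microRNA that GENCODE places on chromosome 1. The gene shares 1771 bases with Oraov1 on the other strand, whose own row averaged 6.70 ± 0.573 FPKM in cKO and 8.11 ± 0.438 FPKM in controls (SD, n = 3 each). Since the sources used here name no strand setting for the counting, reads from the shared stretch cannot be assigned.

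Ccnd2, the D-type cyclin prominent in granule neuron progenitors, was lower in each cKO library than in any control without passing the test. It had 43.1, 44.5 and 48.1 FPKM in cKO, against 61.0, 58.0 and 48.9 FPKM in controls. The groups did not overlap, but cKO 3 and Control 3 lay close together. The log2 fold change was -0.30 (95% interval -0.51 to -0.08, limma adjusted p = 0.180). Ccnd2 shares 2805 bases with 9330179D12Rik on the other strand, whose row averaged 0.690 FPKM in cKO and 0.918 FPKM in controls, with overlap. Ccnd3, which is expressed in many tissues, had 19.3, 18.2 and 19.3 FPKM in cKO, against 20.4, 16.1 and 18.0 FPKM in controls. Its groups overlapped, and the log2 fold change of 0.06 had a 95% interval from -0.14 to 0.27. That fold change was -0.018 without Control 2, so its sign rested on 1 library. Ccnd3 shares 361 bases with Bysl on the other strand, whose row averaged 12.5 FPKM in cKO and 12.1 FPKM in controls.

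**Figure D1:**
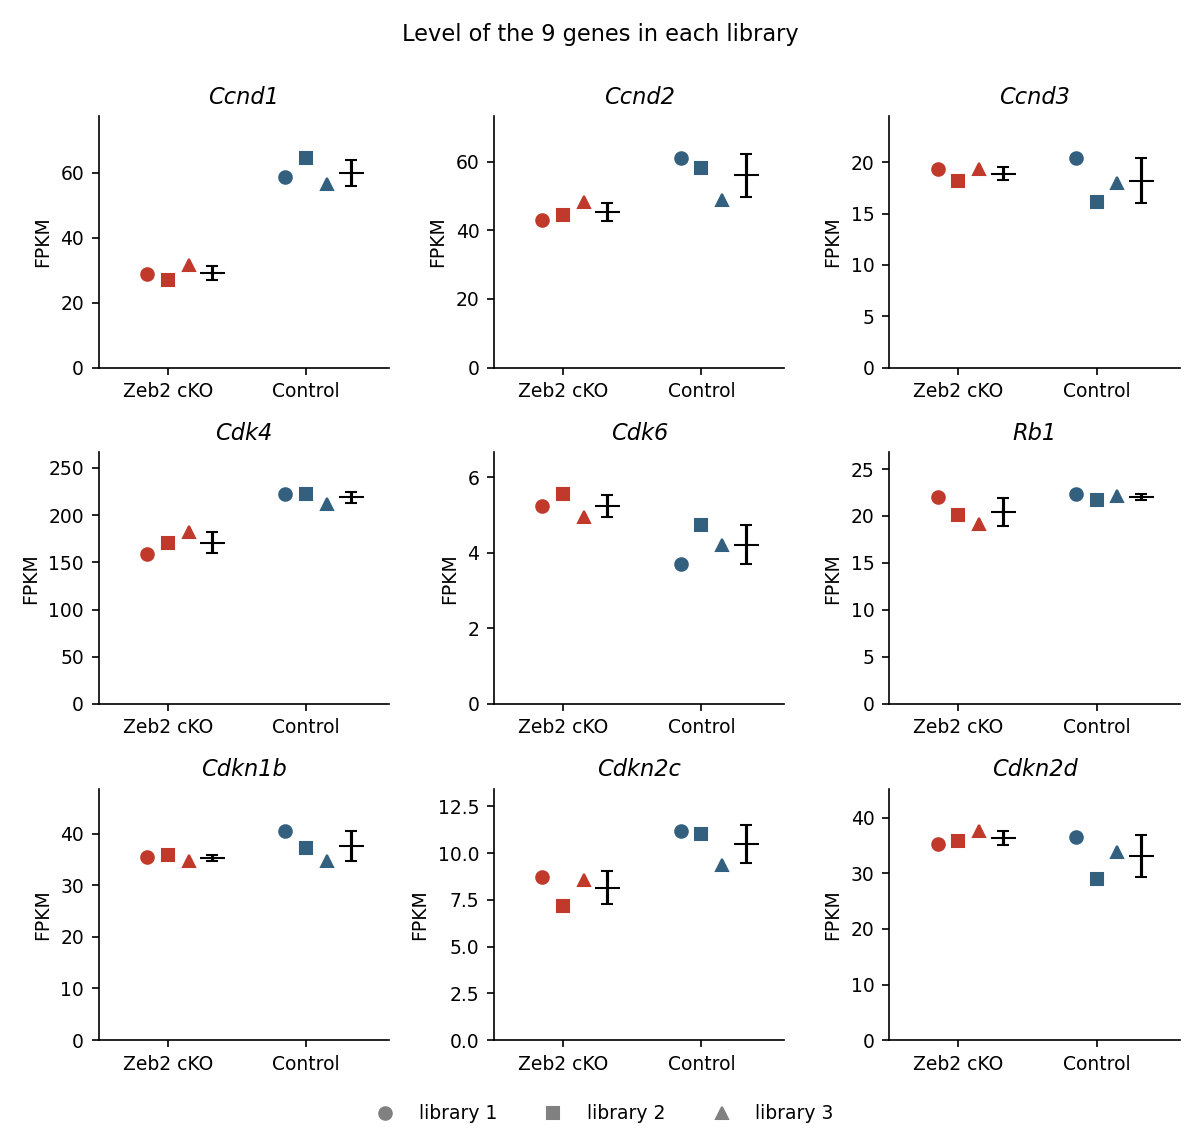
FPKM (vertical axis, from 0) of the 9 genes in the Zeb2 cKO libraries (red, left) and the Control libraries (blue, right), with circles, squares and triangles for libraries 1, 2 and 3 and black bars for mean ± SD (n = 3). Ccnd1 lies between 27.1 and 31.5 FPKM in cKO and between 56.7 and 64.5 FPKM in controls, and Ccnd3, Rb1, Cdkn1b and Cdkn2d overlap between the groups.

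The make-up of the D-type cyclin transcripts differed between the groups. Summed over the 3 genes, the level was 93.4 ± 4.90 FPKM in cKO and 134 ± 9.05 FPKM in controls (SD, n = 3 each), a ratio of 0.696. Of the difference of -40.7 FPKM, Ccnd1 made up -30.8, Ccnd2 -10.7 and Ccnd3 0.767 FPKM. Ccnd1 gave 31.6, 30.2 and 31.8% of the sum in cKO, against 41.8, 46.5 and 45.9% in controls. The share of Ccnd2 was 48.5 ± 1.15% in cKO and 41.7 ± 2.00% in controls (SD, n = 3 each), and that of Ccnd3 was 20.3 ± 0.808% and 13.6 ± 1.71%. None of these shares overlapped between the groups. They are parts of the same sum, so the fall of Ccnd1 by itself raises the shares of Ccnd2 and Ccnd3. In level, Ccnd2 was lower in cKO and Ccnd3 overlapped. Ccnd1 stood at 0.669, 0.610 and 0.655 times the level of Ccnd2 in cKO, against 0.961, 1.11 and 1.16 times in controls. In controls the pair thus lay close to each other with overlapping ranges, and in cKO Ccnd2 was above Ccnd1 in each of the 3 libraries. No p is given for these sums and shares, since the genes were chosen with earlier results of the same libraries known.

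**Figure D2:**
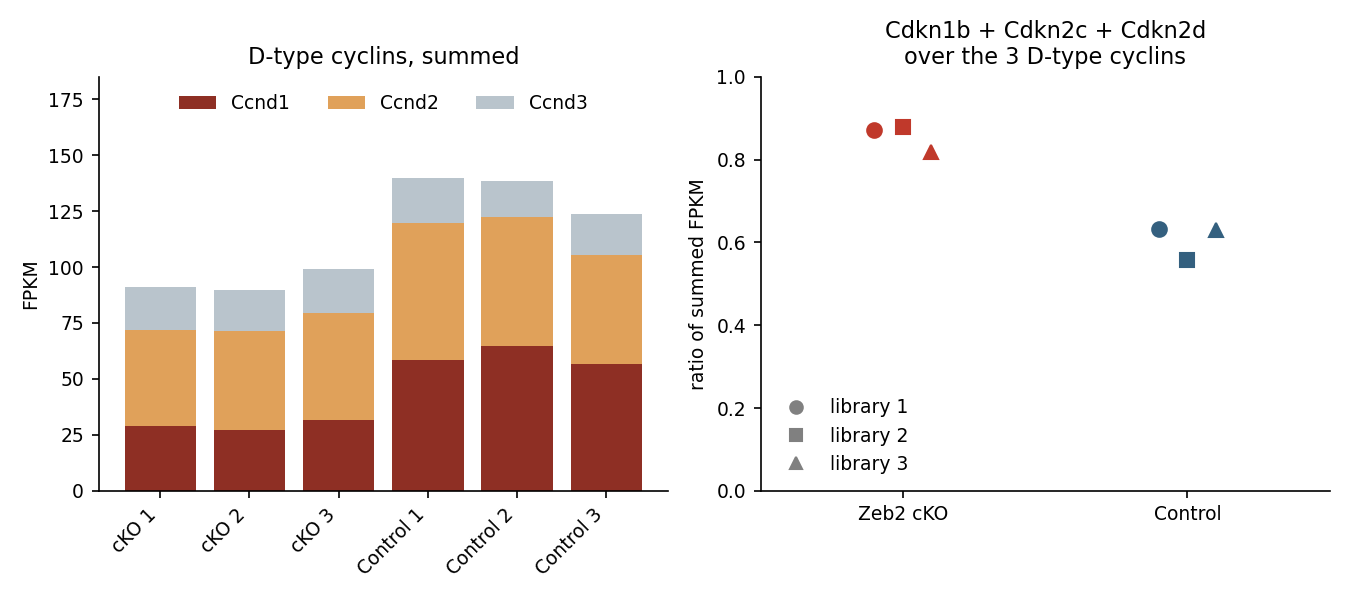
Left, FPKM of Ccnd1, Ccnd2 and Ccnd3 stacked for each library, with the cKO libraries left of the controls. Right, the summed FPKM of Cdkn1b, Cdkn2c and Cdkn2d divided by that of the 3 D-type cyclins, 1 point per library (circle, square and triangle for 1, 2 and 3), which lies between 0.818 and 0.879 in cKO and between 0.558 and 0.632 in controls.

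The kinases differed in opposite directions, and neither passed over all loci. Cdk4, the partner of D-type cyclins in most dividing cells, was the most abundant of the 9 genes in both groups. It had 159, 171 and 182 FPKM in cKO, against 222, 222 and 212 FPKM in controls. All cKO values lay under all control values, and the mean in cKO was 78.0% of that in controls. The log2 fold change was -0.36 (SE 0.07, 95% interval -0.51 to -0.20), with a limma adjusted p of 0.0740. A second limma fit omitted 229 loci of small RNAs (rows named for microRNA, snoRNA and similar genes alone). There Cdk4 was called too, at an adjusted p of 0.0306, beside Ccnd1, so 2 of the 9 passed, against 2.43% of the loci in that fit. Cdk4 (chromosome 10, 127063534 to 127067920, plus strand) shares 641 bases with Tspan31 on the other strand, whose row averaged 38.6 ± 1.34 FPKM in cKO and 40.7 ± 0.453 FPKM in controls (SD, n = 3 each).

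Cdk6, the other kinase that D-type cyclins activate, was the least abundant of the 9 genes in both groups. It had 5.23, 5.55 and 4.96 FPKM in cKO, against 3.71, 4.73 and 4.21 FPKM in controls. Here every cKO value lay above every control value, with a log2 fold change of 0.26 (95% interval 0.05 to 0.47, limma adjusted p = 0.211). Cdk6 gave 3.18, 3.14 and 2.65% of the summed Cdk4 and Cdk6 level in cKO, against 1.64, 2.09 and 1.95% in controls. The sum itself was 176 ± 11.3 FPKM in cKO and 223 ± 6.04 FPKM in controls (SD, n = 3 each). D-type cyclins stood at 0.531 ± 0.0231 times that sum in cKO and 0.601 ± 0.0250 times in controls, without overlap.

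The 3 inhibitors did not move together. Cdkn2c (p18) had 8.72, 7.16 and 8.58 FPKM in cKO, against 11.2, 11.0 and 9.37 FPKM in controls. Its groups did not overlap, and the log2 fold change of -0.34 (95% interval -0.57 to -0.10) had a limma adjusted p of 0.167. Cdkn2d (p19), the INK4 gene known for its expression in neurons that have left the cell cycle, had 35.3, 35.9 and 37.7 FPKM in cKO, against 36.6, 29.0 and 33.8 FPKM in controls. Cdkn1b (p27), which rises as granule neuron progenitors leave the cycle, had 35.4, 35.9 and 34.7 FPKM in cKO, against 40.6, 37.3 and 34.8 FPKM in controls. Both overlapped between the groups, with log2 fold changes of 0.13 (95% interval -0.07 to 0.34) and -0.08 (-0.24 to 0.07). The summed level of the 3 inhibitors was 79.8 ± 1.05 FPKM in cKO and 81.3 ± 6.23 FPKM in controls (SD, n = 3 each). Set over the D-type cyclins, it was 0.872, 0.879 and 0.818 in cKO, against 0.632, 0.558 and 0.631 in controls, and these ratios did not overlap.

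Rb1, whose protein the cyclin D kinases phosphorylate, had 22.0, 20.1 and 19.1 FPKM in cKO, against 22.3, 21.7 and 22.1 FPKM in controls. cKO 1 lay within the control range and the other cKO libraries under it, with a log2 fold change of -0.10 (95% interval -0.25 to 0.04, limma adjusted p = 0.430). Rb1 shares bases with Lpar6 and Rcbtb2 on the other strand, whose rows averaged 2.36 and 21.1 FPKM in cKO, against 2.80 and 24.8 FPKM in controls.

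**Figure D3:**
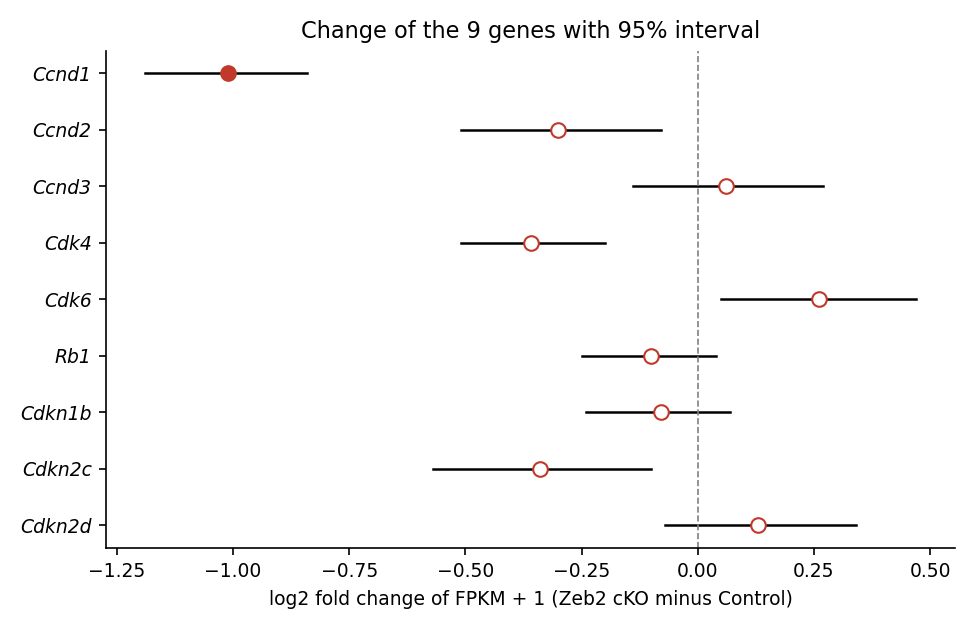
Log2 fold change of FPKM + 1 (horizontal axis, Zeb2 cKO minus Control) for the 9 genes, with 95% intervals from limma. The filled point passed the threshold of 0.05 after adjustment over all loci and the open points did not, and Ccnd1 at -1.01 stands apart from the others, which lie between -0.36 and 0.26.

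Across the 9 genes, 6 had negative and 3 positive log2 fold changes, with a median of -0.10, against -0.009 over all tested loci. The ranges of the groups were apart for 5 of the 9 genes, against 23.9% of tested loci. All cKO values lay under all control values for 4 of the 9 (Ccnd1, Ccnd2, Cdk4 and Cdkn2c), against 13.6% of tested loci, and above them for 1 of the 9 (Cdk6), against 10.3%. Before adjustment, the same 5 genes had a limma p of at most 0.05, as had 17.6% of tested loci. In controls the order of mean levels was Cdk4, Ccnd1, Ccnd2, Cdkn1b, Cdkn2d, Rb1, Ccnd3, Cdkn2c and Cdk6. Neighbours overlapped there for Ccnd1 with Ccnd2 and for Cdkn1b with Cdkn2d. In cKO the order was Cdk4, Ccnd2, Cdkn2d, Cdkn1b, Ccnd1, Rb1, Ccnd3, Cdkn2c and Cdk6, with overlap for Cdkn2d with Cdkn1b and for Rb1 with Ccnd3. Ccnd1 thus took place 5 in cKO, against place 2 in controls. cKO 3 had the highest cKO value of Ccnd1, Ccnd2, Ccnd3, Cdk4 and Cdkn2d, and for Ccnd1 it stood at 52.6% of the control mean, against 48.1 and 45.3% for cKO 1 and cKO 2.

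Factors next to the cyclin D kinases in the pathway mostly had negative log2 fold changes. Of 12 genes of the Rb family and of E2F factors, all 12 had negative log2 fold changes (median -0.27) and none passed over all loci by limma. An unadjusted limma p of at most 0.05 was found for 8 of the 12, against 17.6% of tested loci. In the fit without small-RNA loci, 3 of the 12 were called lower, against 1.47% of the loci in that fit, and they were Rbl1, Tfdp1 and Tfdp2. Rbl1, the pocket protein p107, averaged 5.71 ± 0.0609 FPKM in cKO and 7.28 ± 0.225 FPKM in controls (SD, n = 3 each). Tfdp1 and Tfdp2, the dimer partners of E2F factors, averaged 43.4 and 9.88 FPKM in cKO, against 52.2 and 13.6 FPKM in controls, and E2f7, a repressor of the family that passed in neither fit, averaged 4.07 FPKM in cKO and 5.38 FPKM in controls. Of 10 genes for cyclin E, CDK2 and their regulators, 9 had negative log2 fold changes (median -0.13), again with none past the threshold in the limma fit of all loci. In that fit 5 of the 10 had an unadjusted p of at most 0.05, against 17.6% of tested loci. Cdk2, the kinase that acts after CDK4/6, had 11.6, 12.6 and 11.8 FPKM in cKO, against 15.6, 14.6 and 15.1 FPKM in controls, and Cks1b, a small CDK-binding protein, averaged 32.4 ± 2.32 FPKM in cKO and 41.6 ± 2.85 FPKM in controls (SD, n = 3 each). Those were the 2 of the 10 called with small-RNA loci left out, both lower, against 1.47% of the loci in that fit. Ccne2 (cyclin E2) and Skp2, which marks p27 for degradation, had log2 fold changes of -0.30 and -0.31 and passed in neither fit.

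Among genes that E2F factors switch on at S phase entry, all 18 had every cKO value under every control value, as had 13.6% of tested loci. Their median log2 fold change was -0.39, and 1 of the 18 passed over all loci, against 0.331% of tested loci called lower. That gene was Mcm4, a subunit of the replicative helicase, with 16.4, 16.3 and 16.7 FPKM in cKO, against 22.2, 23.5 and 21.6 FPKM in controls. Its fall (log2 fold change -0.42, limma adjusted p = 0.0305) lost the call with any 1 of the 6 libraries left out, at adjusted p from 0.0632 to 0.132. In the fit without small-RNA loci, 7 of the 18 were called, all lower, against 1.47% of its loci. Mcm6, Pcna, the sliding clamp of DNA polymerase, and Ccna2 (cyclin A2) were among them, with log2 fold changes of -0.45, -0.40 and -0.53. The summed level of the 18 genes lay between 406 and 463 FPKM in cKO and between 529 and 601 FPKM in controls.

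Among the other CDK inhibitors, Cdkn1a, which encodes p21, rose. It had 61.1, 64.0 and 66.1 FPKM in cKO, against 47.7, 44.9 and 49.8 FPKM in controls (log2 fold change 0.42, SE 0.06, limma adjusted p = 0.0391). It was 1 of 3 tested genes of its list, against 0.242% of tested loci called higher, and it lost the call with any 1 library left out, at adjusted p from 0.0712 to 0.165. Cdkn1c (p57) averaged 67.0 ± 3.09 FPKM in cKO and 65.5 ± 5.37 FPKM in controls (SD, n = 3 each), and Cdkn3, a CDK phosphatase, 3.24 ± 0.379 and 3.89 ± 0.228 FPKM. Cdkn2a and Cdkn2b, the other INK4 genes, were under the filter in both groups, at means of 0.0340 and 0.910 FPKM in cKO and 0.0852 and 0.678 FPKM in controls.

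Of 19 genes that regulate D-type cyclins, 5 had positive and 14 negative log2 fold changes (median -0.11), and none passed over all loci by limma. An unadjusted limma p of at most 0.05 was found for 8 of the 19, against 17.6% of tested loci. Gli1 and Gli2, which carry the hedgehog signal to its target genes, averaged 12.5 ± 1.87 and 6.00 ± 0.535 FPKM in cKO, against 21.0 ± 2.45 and 9.52 ± 0.971 FPKM in controls (SD, n = 3 each). They were the 2 of the 19 called with small-RNA loci left out, both lower, against 1.47% of the loci in that fit. Other hedgehog pathway genes of the list are added here after their values had been seen. The groups of Ptch1 and Gli3 overlapped, at 24.4 and 4.66 FPKM in cKO, against 27.3 and 4.73 FPKM in controls. Smo and Hhip had every cKO value under every control value, without a call. Etv5 and Fos, factors that respond to growth factor signals, had log2 fold changes of -0.28 and 0.46 without passing in either fit. Etv4, also added after its values had been seen, went the other way from Etv5, with a log2 fold change of 0.31 and no call. Mycn, a Myc factor of granule neuron progenitors that was added here after its values had been seen, averaged 38.0 ± 1.17 FPKM in cKO and 46.4 ± 4.23 FPKM in controls (SD, n = 3 each), with a limma adjusted p of 0.133. Myc, added in the same way, averaged 9.77 FPKM in cKO and 10.2 FPKM in controls, with overlap.

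**Figure D4:**
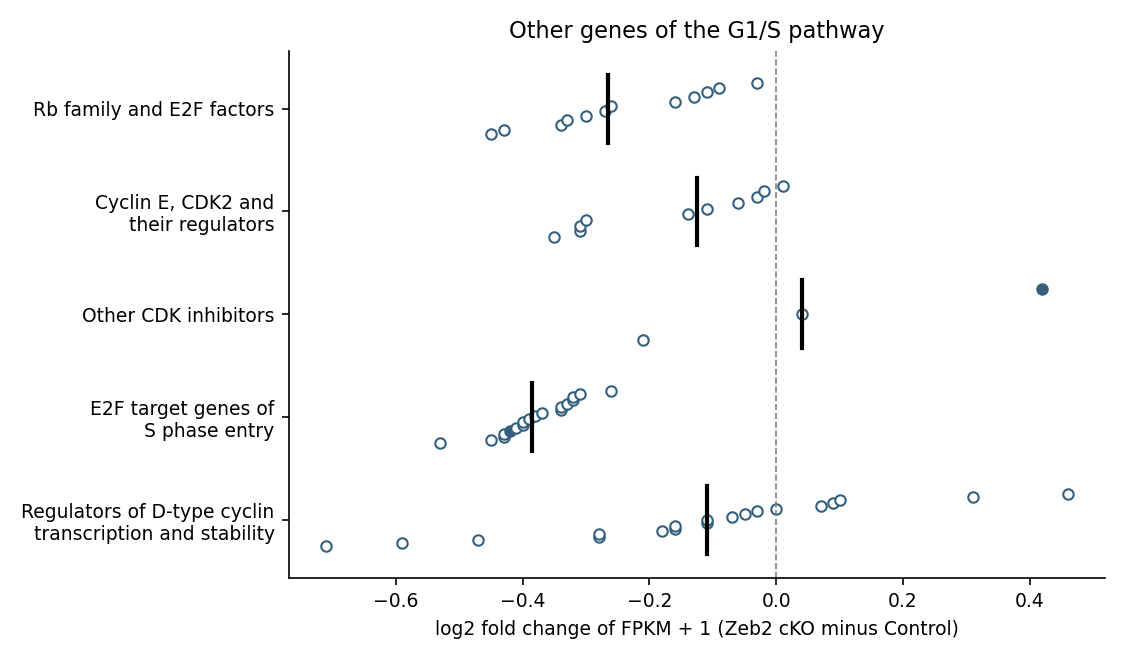
Log2 fold change of FPKM + 1 (horizontal axis, Zeb2 cKO minus Control) of each tested gene in the 5 lists of pathway genes, with a black bar at each list's median and filled points for genes that passed the threshold of 0.05 over all loci (Cdkn1a and Mcm4). All E2F target genes lie left of 0, with a median of -0.39, while regulators of D-type cyclins lie on both sides.

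The 3 loci whose values over the 6 libraries ran most like those of Ccnd1 (Pearson r of log2 values, among 10386 other loci with a mean of at least 5 FPKM) were Nek6, a mitotic kinase (r = 0.9982), Mcm4 (r = 0.9958) and Ecd (r = 0.9949). The points share the 2 genotypes, so such an r mostly follows the gap between the groups, and 170 loci were above 0.95. Nek6 had 14.9, 14.2 and 15.1 FPKM in cKO, against 19.0, 19.4 and 18.7 FPKM in controls.

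Marker genes of cell types are given here beside these values, and their part in the results was not tested. The summed levels did not overlap between the groups for the lists of granule neuron progenitors, radial glia, oligodendrocyte precursors and microglia, and overlapped for the other lists given here. In whole tissue, fewer cells of a type and less RNA per cell cannot be told apart. Of 10 granule neuron progenitor genes, 9 had negative log2 fold changes, and the summed level of the 10 was 709 to 791 FPKM in cKO and 814 to 918 FPKM in controls. Mfap4 averaged 18.5 FPKM in cKO and 69.9 FPKM in controls. It was the 1 of the 10 called over all loci (limma adjusted p = 0.0235), against 0.331% of tested loci called lower. In the fit without small-RNA loci, 2 of the 10 (Mfap4 and Hey1) were called lower, against 1.47% of its loci. Only 3 of the 10 (Mfap4, Hey1 and Neurod1) were lower in cKO without overlap. The groups overlapped for the others, among them Atoh1, Zic1 and Pax6, so most genes of the list did not share the gap in the sum. That gap, from 791 to 814 FPKM, was narrower than the gap of Mfap4 alone, from 24.6 to 55.1 FPKM. Of 12 genes of radial glia, Bergmann glia and astrocytes, 8 were negative, with sums of 2274 to 2550.3 FPKM in cKO and 2762 to 2880.3 FPKM in controls. Most of that sum was Fabp7, at 1581 FPKM in cKO and 1577 FPKM in controls, with overlap. Vim averaged 334 FPKM in cKO and 556 FPKM in controls, Slc1a3 160.3 and 269 FPKM, and Gdf10 54.7 and 115 FPKM. Those genes and Aqp4 were the 4 of the 12 with every cKO value under every control value, against 13.6% of tested loci. No gene of this list was called over all loci. In the fit without small-RNA loci, 2 of the 12 (Vim and Aqp4) were called lower, against 1.47% of its loci. Of 8 microglia and macrophage genes, all 8 had every cKO value above every control value, as had 10.3% of tested loci. The call of 1 of the 8 (Csf1r, limma adjusted p = 0.0483) stood against 0.242% of tested loci called higher. Csf1r was called under 7 of 22 alternatives. In the fit without small-RNA loci, 4 of the 8 (Csf1r, C1qa, C1qb and C1qc) were called higher, against 0.956% of its loci. The sums of the 8 genes were 50.6 to 54.9 FPKM in cKO and 38.3 to 39.1 FPKM in controls. Purkinje cell and GABAergic precursor genes (5 of 7 positive) summed to between 217 and 249.9 FPKM in cKO and between 205 and 219 FPKM in controls. Oligodendrocyte precursor genes (3 of 5 positive) summed to between 193 and 218 FPKM in cKO and between 107 and 139.6 FPKM in controls. Most of that sum was Olig1, which rose to 147 FPKM in cKO, against 72.6 FPKM in controls, and Olig2 averaged 33.3 FPKM in cKO and 21.0 FPKM in controls. Olig1 was the 1 of the 5 called over all loci (limma adjusted p = 0.0231), against 0.242% of tested loci called higher. In the fit without small-RNA loci, 2 of the 5 (Olig1 and Olig2) were called higher, against 0.956% of its loci. Of the rest, Pdgfra averaged 14.0 FPKM in cKO and 17.3 FPKM in controls without overlap, Sox10 3.95 FPKM in cKO and 5.32 FPKM in controls, and Cspg4 4.86 FPKM in cKO and 4.67 FPKM in controls, and the groups of Sox10 and Cspg4 overlapped. Meningeal fibroblast genes (7 of 8 positive) lay at 30.3 to 75.2 FPKM in cKO and 25.5 to 43.3 FPKM in controls, and endothelial genes (6 of 7 positive) at 74.4 to 79.6 FPKM in cKO and 64.6 to 74.6 FPKM in controls. Erythroid genes summed to 12.2 to 13.8 FPKM in cKO and 6.55 to 26.0 FPKM in controls. A row named for Hba-a1 and Hba-a2 had 2.14, 1.15 and 1.56 FPKM in cKO and 0 in each control. It was the 1 of 4 tested rows called over all loci (limma adjusted p = 0.0177), against 0.242% of tested loci called higher. Another row with the same names averaged 3.77 FPKM in cKO and 7.05 FPKM in controls, with overlap. Choroid plexus genes summed to 2.14 to 13.7 FPKM in cKO and 2.72 to 7.72 FPKM in controls. No marker with a row in these lists was at 0 in all 6 libraries.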

How the data were processed

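Per the labels' protocols, RNA came from frozen cerebellum (Trizol, Illumina TruSeq RNA libraries). CASAVA, TopHat, Cufflinks and build mm10 are named per the submitters' processing notes. The deposited values are taken to be FPKM per locus, from the tool, the locus names and their range. The sources used here give no versions, annotation, strand setting, scaling or depth, so the precision of low values is unknown. The library cKO 1 is numbered by its title (its description has 3).

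From these values, log2(FPKM + 1) was tested with limma 3.58.1 (R 4.3.3, moderated two-sided test with a mean-variance trend) on 13612 loci that reached 1 FPKM in 3 or more libraries, with Benjamini-Hochberg adjustment and a threshold of 0.05. The step was tested on simulated data. The genes, lists, tests and alternatives were chosen with earlier results of these data known. Named were the 9 genes, Zeb2, Xist, Eif2s3y and Ddx3y, up to 4 genes with the smallest p of each of 5 pathway lists, and the 3 loci most like Ccnd1. Marker and overlapping genes, Mycn, Myc, Ptch1, Gli3, Smo, Hhip, Etv4, Cdkn2a and Cdkn2b were named besides. Coordinates are from GENCODE M21 (GRCm38, the same assembly as mm10), with Oraov1 matched by a RefSeq synonym. The alternatives were each library left out, a replicate block, a covariate for the deposit, the first deposit only, other pseudocounts (0.1 and 0.5), filters, scalings, variance models and thresholds, and small-RNA loci left out. Processing sets were found from the steps between values under 0.1 FPKM and joined cKO 3 with Control 1 and cKO 1 and 2 with Control 2 and 3. They were added as an alternative after the data were seen. Python 3.11.15 (pandas 2.3.3, scipy 1.17.1, matplotlib 3.10.9) made the tables and figures.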

Additional observations from a re-analysis of the deposited data

How the results depend on the processing

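Ccnd1 was called lower under 21 of 22 alternatives, with log2 fold changes from -1.11 to -0.96. The exception was the replicate number as a block (-1.01, limma adjusted p = 0.0695), where 0 of the 9 genes and 15 loci were called. The numbers were not shown to pair the libraries: same-numbered libraries deviated from their group means with correlations of -0.027, 0.037 and 0.049. Of the 9 genes, 2 were called (Ccnd1 and Cdk4) with small-RNA loci left out, alone (325 loci called in all) or also without cKO 3 (284), with robust variance estimation (336 loci) and at a threshold of 0.1 (409 loci). The log2 fold change of Cdk4 was then -0.36 or, without cKO 3, -0.40. Zeb2 was called with small-RNA loci left out (-0.77). Against 78 loci, 22 were called with the deposit as a covariate, 30 in the larger processing set only, 30 at a mean of at least 5 FPKM (Cdk6 was not tested there), 28 without a filter, 20 at a threshold of 0.01, and 21 to 55 with 1 library left out. In the first deposit only, the summed D-type cyclins differed by -0.62 on the log2 scale. With 1 library left out, that difference ran from -0.58 to -0.49, the share of Ccnd1 from -15.0 to -12.7 percentage points, and the log2 ratio of inhibitors to cyclins from 0.44 to 0.53. The log2 fold change of Ccnd3 ran from -0.018 (without Control 2) to 0.15. The other genes of the 9 kept their sign and stayed uncalled under the alternatives run. The cause of these differences was not tested.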
